A study of Danio rerio with 18 samples.

Results

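The 7 mitochondrially encoded genes for subunits of respiratory complex I are mt-nd1 (ENSDARG00000063895), mt-nd2 (ENSDARG00000063899), mt-nd3 (ENSDARG00000063914), mt-nd4l (ENSDARG00000063916), mt-nd4 (ENSDARG00000063917), mt-nd5 (ENSDARG00000063921) and mt-nd6 (ENSDARG00000063922). They were taken by gene identifier and are 7 of the 25193 genes counted in 18 zebrafish libraries. All 7 passed the low-count filter in every comparison. RNA came from pooled embryos that carried a transgene, at 24 hours post fertilization (hpf), in 6 groups of 3 libraries. In AngioTag embryos a transgene puts an HA epitope on ribosomes of the endothelium, the lining of blood vessels, and in RiboTag embryos on ribosomes of the whole embryo. The AngioTag IP and RiboTag IP libraries hold RNA that an HA antibody pulled down with the tagged ribosomes, and the AngioTag input and RiboTag input libraries hold input RNA of the same lines. FACS sorted is RNA from endothelial cells of AngioTag embryos that a flow cytometer separated by their GFP, and FACS total is total RNA of AngioTag embryos, used here as its whole-embryo counterpart. That kdrl drives the AngioTag transgene and that it tags the cytosolic ribosomal protein Rpl10a is known of the study and is not in the labels. The promoter of the RiboTag line, the strain and the number of embryos in a pool are not given in the sources used here. Nothing says that the 3 libraries of a group came from separate pools, so p-values measure the spread between these libraries, which may be technical.

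Complex I takes electrons from NADH, passes them to ubiquinone and pumps protons across the inner mitochondrial membrane. Its membrane arm is built around 7 subunits encoded by the mitochondrial genome, while the other core subunits, the accessory subunits and the assembly factors are encoded in the nucleus, made on cytosolic ribosomes and imported. The mitochondrial messages are transcribed as long precursors from both strands, cut apart and translated inside the organelle by mitochondrial ribosomes. Nd1 and Nd3 lie near the ubiquinone site, Nd4l and Nd6 in the part of the membrane arm next to them, and Nd2, Nd4 and Nd5 resemble antiporters and carry proton channels. In vertebrates mt-nd6 is the only one of these genes encoded on the light strand, beside mt-nd5 on the other strand, and mt-nd4l and mt-nd4 share a message and overlap. The library kit marks the strand, but whether counting used it is not given in the sources used here. Counts of mt-nd6 may therefore hold RNA of the other strand along the whole gene. Counts of mt-nd5 against mt-nd6 and of mt-nd4l against mt-nd4 are uncertain where they overlap. Levels were not compared between genes, since they are not per length.

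Libraries held 18.3 to 49.5 M (mega) counts. The labels were checked with kdrl, a receptor gene of endothelial cells, and with the 20 endothelial marker genes in the table. On the log2 scale kdrl differed by 4.22 ± 0.28 (SE) between AngioTag IP and its input, by 5.14 ± 0.31 between FACS sorted and FACS total, and by -0.18 ± 0.25 between RiboTag IP and its input. Summed over the markers, library-scaled counts (CPM) ran from 4702 to 8084 in AngioTag IP and from 9870 to 13667 in FACS sorted, and from 281 to 395 in the other 4 groups. These genes separate AngioTag IP and FACS sorted from the other 4 groups. They do not show that AngioTag IP and FACS sorted are not exchanged. Nor do they tell AngioTag input, FACS total and the RiboTag groups apart. They do not check which RiboTag libraries are the pull-down, which rests on the column names.

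Together the 7 genes took 1.24% ± 0.165 (SD, n = 3) of all counts in AngioTag input and 1.18% ± 0.0755 in RiboTag input. They took 0.643% ± 0.166 in FACS total and 0.510% ± 0.115 in FACS sorted. In the pull-downs the share was 0.0753% ± 0.0117 in AngioTag IP and 0.0400% ± 0.0104 in RiboTag IP. The pull-down libraries were thus the lowest of all, with every one at or below 0.0883% and every other library at or above 0.408%. Counting error was small beside these gaps: the widest 95% Wilson interval of a library's share reached 0.00399 percentage points to each side. As a share of the counts of all mitochondrially encoded protein genes, the 7 genes varied much less, from 21.4% ± 1.52 in FACS sorted and 23.2% ± 1.15 in FACS total to 29.6% ± 1.84 in AngioTag input. AngioTag IP stood at 27.6% ± 2.61, RiboTag IP at 28.7% ± 4.12 and RiboTag input at 28.1% ± 0.760. This total holds 4 counts of mt-cyb, and whether the counting dropped or split reads of some mitochondrial genes, mt-nd4l among them, was not tested.

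**Figure D1:**
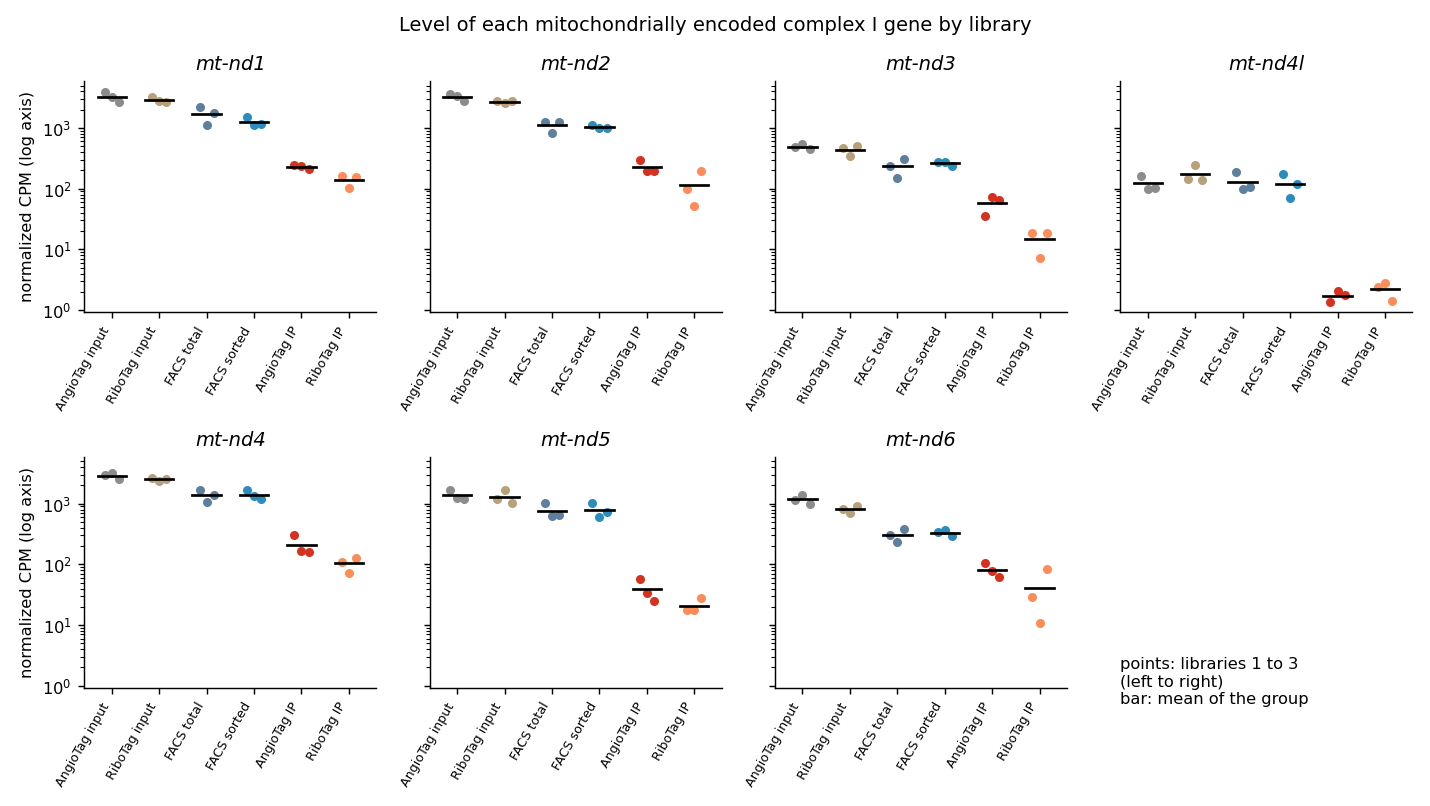
Normalized CPM on a log axis of each of the 7 genes, by group, with a point for each library (1 to 3 from left to right) and a bar at the group mean. The AngioTag IP and RiboTag IP points lie below those of the other 4 groups in each panel, and mt-nd4l is the gene whose 4 other groups overlap.

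The order of the groups was alike for 6 of the 7 genes. AngioTag input had the highest mean for mt-nd1, mt-nd2, mt-nd3, mt-nd4, mt-nd5 and mt-nd6, followed by RiboTag input, then both FACS groups, then AngioTag IP and last RiboTag IP. The 2 input groups overlapped in their libraries for 5 of these genes and stood apart for mt-nd6, and the 2 FACS groups overlapped for all of them. For mt-nd4l the order was different: RiboTag input (176 ± 60.9 CPM), FACS total (131 ± 49.1), AngioTag input (122 ± 36.9) and FACS sorted (120 ± 52.1) overlapped from each to the next, and RiboTag IP (2.23 ± 0.721) lay above AngioTag IP (1.73 ± 0.334), also with overlap.

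The first comparison asked which messages were pulled down with ribosomes tagged in the endothelium, against all RNA of the same embryos. All 7 genes were lower in AngioTag IP than in AngioTag input, where 11.9% of all 17913 genes tested were called lower. The fold changes ran from -3.09 (mt-nd3) to -6.13 (mt-nd4l) on the log2 scale with a median of -3.86, beside a median of -0.03 over all genes tested. No gene's libraries overlapped between the groups. Markers of other cells moved with this comparison: 7 of 7 skeletal muscle markers were lower (summed CPM 1910 to 2451 against 4282 to 5344). Of 6 epidermis markers 3 were lower, and of 6 yolk layer markers 3 were lower and 1 higher. Neural markers went both ways (3 of 7 lower, 1 higher), as did cardiac markers (2 of 6 lower, 1 higher). Of 6 erythroid markers 3 were higher. All 6 myeloid markers were higher (430 to 1046 against 30.1 to 58.5). The part of these cells in the fall of the 7 genes was not tested. In bulk RNA like this, fewer cells of a type and less RNA per cell cannot be told apart.

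Near the ubiquinone site, mt-nd1 stood at 249, 233 and 211 CPM in AngioTag IP libraries 1 to 3 and at 3978, 3195 and 2711 in the inputs. The pull-down libraries lay within 1.18-fold of each other and far under the inputs, a 14.4-fold difference (log2 fold change -3.85 ± 0.21, adjusted p = 2.42e-05, edgeR quasi-likelihood F test). For mt-nd3 the values were 35.9, 73.5 and 65.9 CPM in the pull-down and 482, 548 and 451 in the input. Library 1 of the pull-down was the low one, and this gene had the smallest fall of the 7 (-3.09 ± 0.28, 8.54-fold, adjusted p = 0.000151).

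In the adjoining part of the membrane arm, mt-nd4l had few counts left in the pull-down, with 24, 79 and 65 counts in libraries 1 to 3, or 1.38, 2.04 and 1.78 CPM, against 5568, 4002 and 4269 counts, or 165, 97.8 and 104 CPM, in the input. This 70.0-fold fall (-6.13 ± 0.30, adjusted p = 2.42e-05) was the largest of the 7, and 5 of the 17913 genes tested had a lower fold change. The light-strand gene mt-nd6 was at 105, 78.8 and 60.7 CPM in the pull-down and at 1137, 1396 and 983 in the input. Its fall of 14.6-fold (-3.86 ± 0.26, adjusted p = 3.79e-05) was close to that of mt-nd1.

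Of the antiporter-like subunits, mt-nd2 was at 292, 192 and 192 CPM in the pull-down and at 3594, 3299 and 2775 in the input (-3.86 ± 0.24, adjusted p = 2.85e-05). For mt-nd4 the pull-down libraries held 308, 169 and 159 CPM and the inputs 2999, 3141 and 2560 (-3.79 ± 0.30, adjusted p = 6.96e-05). Both genes were highest in pull-down library 1. So was mt-nd5, at 58.2, 34.1 and 24.6 CPM against 1686, 1256 and 1174 in the input. It fell more than these neighbours in the complex, by 35.7-fold (-5.16 ± 0.36, adjusted p = 4.00e-05), and 14 of the genes tested had a lower fold change.

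RiboTag asked the same of ribosomes tagged throughout the embryo. Again all 7 genes were lower in the pull-down, while 0.496% of all 18134 genes tested were called lower. Their fold changes ran from -4.28 (mt-nd6) to -6.23 (mt-nd4l) with a median of -4.55, beside -0.05 over all genes tested, and no gene's libraries overlapped between the groups. With the replicate number as a block the 7 genes were again lower, among 1268 genes called lower in place of 90. Of 6 yolk layer markers 4 were lower as well (median -1.83), with summed CPM of 674 to 1256 in the pull-down and 1990 to 2719 in the input, and their part in the fall was not tested.

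For mt-nd1 the pull-down libraries 1 to 3 held 160, 102 and 157 CPM and the inputs 3199, 2755 and 2701 (-4.32 ± 0.30, adjusted p = 0.000958). mt-nd3 was at 18.6, 7.24 and 18.8 CPM against 463, 348 and 505 (-4.84 ± 0.43, adjusted p = 0.00357). Library 2 was the low one of the pull-down for both genes. For mt-nd4l, 68, 109 and 37 counts were left in the pull-down, or 2.44, 2.83 and 1.43 CPM, against 143, 246 and 138 CPM in the input. This was again the largest fall of the 7 (75.2-fold, -6.23 ± 0.38, adjusted p = 0.000616), with library 3 the lowest of the pull-down and library 2 the highest of both groups.

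mt-nd6 was the least even of the 7 in this pull-down, at 29.5, 10.9 and 82.5 CPM, a range of 7.59-fold, against 830, 714 and 908 in the input. Its call had the largest adjusted p of the set (-4.28 ± 0.67, adjusted p = 0.0310). mt-nd2 followed the same order of libraries, at 98.3, 52.3 and 197 CPM against 2741, 2601 and 2792 (-4.51 ± 0.49, adjusted p = 0.0111). mt-nd4 was more even, at 111, 72.1 and 129 CPM against 2620, 2393 and 2550 (-4.55 ± 0.32, adjusted p = 0.000958). mt-nd5 stood at 17.5, 17.5 and 27.98 CPM against 1215, 1677 and 1022, the second largest fall (60.1-fold, -5.91 ± 0.35, adjusted p = 0.000616).

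Single libraries decided some of these RiboTag calls. Without RiboTag IP library 1, 4 of 7 genes were called, and mt-nd2 (adjusted p = 0.123), mt-nd3 (0.0754) and mt-nd6 (0.166) were not, at fold changes of -4.41, -5.06 and -4.10. Without RiboTag input library 1 or 3, 5 genes were called, and without library 2, 6. In these fits mt-nd2 and mt-nd6, or mt-nd6 alone, missed the threshold.

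Sorting takes whole cells by their GFP, with no pull-down on either side, and here no change was called for any of the 7 genes. Of all 19326 genes tested between FACS sorted and FACS total, 28.7% were called in either direction. No member had an unadjusted p below 0.05 in edgeR, DESeq2 called 0 as well, and the libraries of every member overlapped between the groups. Fold changes ran from -0.40 ± 0.32 (mt-nd1) to 0.19 ± 0.30 (mt-nd3), with adjusted p from 0.388 to 0.935 and a median of 0.04, beside -0.11 over all genes. Standard errors were 0.27 to 0.36, and in the same comparison a nuclear gene at -0.74 ± 0.29 (ndufa10) missed the threshold, so changes of that size can go uncalled. Without FACS total library 2 the value of mt-nd1 was -0.64. In this comparison 7 of 7 skeletal muscle, 6 of 7 neural and 4 of 6 epidermis markers were lower, and 6 of 6 myeloid markers higher. Of 6 erythroid markers 3 were called higher and 6 had an unadjusted p below 0.05. Their summed CPM was uneven, at 4478 to 22530 in FACS sorted and 1683 to 4701 in FACS total. The part of these cells in the values of the 7 genes was not tested.

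The values show how wide the overlap was. mt-nd1 was at 1534, 1110 and 1156 CPM in FACS sorted and at 2222, 1099 and 1751 in FACS total. mt-nd4l was at 174, 69.6 and 118 CPM against 187, 97.3 and 108, and mt-nd5 at 1016, 599 and 733 against 1032, 633 and 644. Library 1 of FACS sorted was the high one for these 3 genes, as was library 1 of FACS total. mt-nd2 (1133, 1013 and 1005 against 1245, 834 and 1256 CPM) and mt-nd4 (1671, 1352 and 1210 against 1657, 1063 and 1367) overlapped as well, with mt-nd2 of FACS sorted wholly inside the range of FACS total. mt-nd3 was at 275, 270 and 239 CPM against 237, 152 and 309, and mt-nd6 at 337, 374 and 289 against 305, 234 and 377. For these 2 genes FACS total spread over more than the whole range of FACS sorted.

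**Figure D2:**
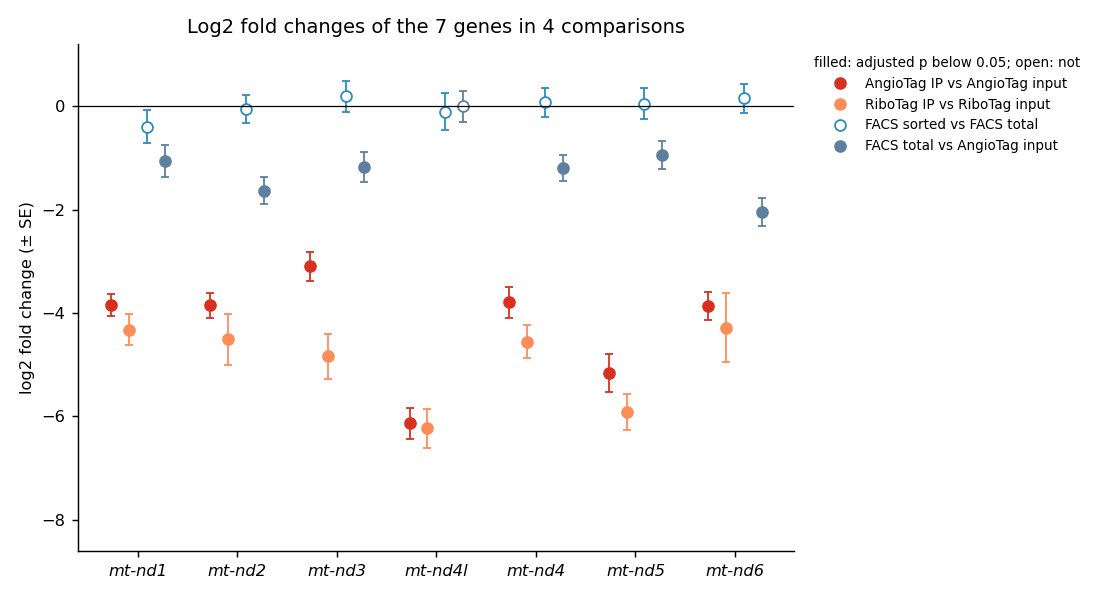
Log2 fold change with its standard error of the 7 genes in 4 comparisons, filled where the adjusted p was below 0.05. Both pull-downs lie between -3.09 and -6.23, sorted against total lies around 0 with open points, and FACS total against AngioTag input lies between -0.01 and -2.04.

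The difference between both ways of sampling the endothelium was tested itself. Their references also differed, with 6 of the 7 genes lower in FACS total than in AngioTag input. The change from reference to endothelial sample was lower in AngioTag than in FACS for all 7 genes, by -3.27 ± 0.42 (mt-nd3) to -6.02 ± 0.52 (mt-nd4l) on the log2 scale, with adjusted p from 0.000187 to 0.00122. Over all 20153 genes tested, 5.12% were called lower in this difference of enrichments. mt-nd5 had the second largest difference (-5.17 ± 0.50), and mt-nd1, mt-nd2, mt-nd4 and mt-nd6 lay between -3.43 and -3.98. In the same difference 9 of 20 endothelial markers were lower. Higher were 3 of 7 skeletal muscle, 2 of 7 neural and 1 of 6 cardiac markers, beside 605 of the 20153 genes. The part of these cells was not tested.

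Set directly against each other, FACS sorted held all 7 genes at higher levels than AngioTag IP. The genes were higher by 2.05 ± 0.29 (mt-nd6), 2.20 ± 0.30 (mt-nd3), 2.24 ± 0.28 (mt-nd2), 2.48 ± 0.26 (mt-nd1), 2.75 ± 0.34 (mt-nd4), 4.34 ± 0.42 (mt-nd5) and 6.13 ± 0.42 (mt-nd4l) on the log2 scale, with no overlap of libraries and adjusted p from 1.59e-05 to 0.000472. Among all 18519 genes tested, 28% were called higher. This comparison and the 2 before it share the AngioTag IP or FACS libraries, so they are not independent of each other.

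The pull-downs were also compared with each other. Of the 7 genes, 1 was called: mt-nd3 was higher in AngioTag IP than in RiboTag IP, with the libraries apart (35.9 to 73.5 against 7.24 to 18.8 CPM, 1.94 ± 0.40, adjusted p = 0.00710), where 9.86% of 17096 genes were called higher. Over the alternatives tried, its adjusted p ran from 3.69e-05 to 0.0293. The rise was not particular to mt-nd3, since mt-co2 and mt-co3 of the mitochondrial genome were called higher too. mt-nd4 (0.99 ± 0.35, adjusted p = 0.0707), mt-nd6 (0.97 ± 0.55), mt-nd2 (0.93 ± 0.43), mt-nd5 (0.86 ± 0.36) and mt-nd1 (0.69 ± 0.29) also had positive values that did not pass, and mt-nd4l was at -0.41 ± 0.53. The libraries of mt-nd1 and mt-nd4 did not overlap, and 4 members had an unadjusted p below 0.05. With the replicate number as a block, mt-nd2 (1.11, adjusted p = 0.0407) and mt-nd4 (0.96, adjusted p = 0.0327) passed as well, and with all 18 libraries in 1 fit 5 genes did. Markers of other cells moved with this comparison. Summed CPM of 6 myeloid markers was 430 to 1046 in AngioTag IP and 21.5 to 28.9 in RiboTag IP, with 6 of 6 higher. For 6 yolk layer markers it was 1932 to 2369 against 674 to 1256, with 4 of 6 higher, and for 7 skeletal muscle markers 1910 to 2451 against 3804 to 4829, with 6 of 7 lower. No marker was at 0 throughout a group, and the part of these cells in the value of mt-nd3 was not tested.

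Whether the loss from reference to pull-down differed between the lines was tested as a difference of enrichments. mt-nd3 fell less in AngioTag than in RiboTag, by 1.73 ± 0.48 on the log2 scale (adjusted p = 0.0401), where 4.46% of 19046 genes were called higher, or 1495 genes in place of 850 with the replicate number as a block. This call was lost in 7 of the 12 fits that left out 1 library, with adjusted p from 0.0706 to 0.108, among them the fits without each AngioTag input library. The differences of the other 6 genes, from 0.09 ± 0.43 (mt-nd4l) to 0.74 ± 0.40 (mt-nd4), did not pass.

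The whole-embryo references were compared with each other as well. Between AngioTag input and RiboTag input no member was called by edgeR, where 1.66% of 18458 genes were called in either direction. Fold changes ran from -0.49 ± 0.24 (mt-nd4l) to 0.54 ± 0.18 (mt-nd6). mt-nd6 had an unadjusted p of 0.0122 and an adjusted p of 0.124. Its libraries did not overlap (1137, 1396 and 983 against 830, 714 and 908 CPM), and DESeq2 called it (adjusted p = 0.0293), the only member so called.

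FACS total, in contrast, held 6 of the 7 genes at lower levels than AngioTag input, although both come from AngioTag embryos. The preparation of these references differed, so preparation and group cannot be told apart here. Of 19266 genes tested, 21.2% were called lower. mt-nd6 fell most (305, 234 and 377 against 1137, 1396 and 983 CPM, -2.04 ± 0.27, adjusted p = 0.000751). mt-nd2 followed (-1.64 ± 0.27, adjusted p = 0.00185), then mt-nd4 (-1.196 ± 0.25), mt-nd3 (-1.18 ± 0.29), mt-nd1 (-1.07 ± 0.31) and mt-nd5 (-0.94 ± 0.27). The libraries of these 6 genes did not overlap between the groups. mt-nd4l did not follow them, at 187, 97.3 and 108 CPM against 165, 97.8 and 104 (-0.01 ± 0.30, adjusted p = 0.984). The calls of mt-nd1 and mt-nd5 were lost without AngioTag input library 1 or 2 or FACS total library 2, with adjusted p from 0.0504 to 0.0803. That of mt-nd5 was also lost with all 18 libraries in 1 fit (-0.83, adjusted p = 0.0582).

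Markers of other tissues moved with this difference. Summed over 7 skeletal muscle markers, FACS total libraries held 486 to 2006 CPM and AngioTag input 4282 to 5344. The 6 epidermis markers summed to 4945 to 10606 CPM against 14088 to 18573, the 6 cardiac markers to 16.0 to 23.5 against 93.1 to 118, and the 6 yolk layer markers to 596 to 824 against 2466 to 3393. By gene, 4 of 7 muscle markers were lower and 1 higher, and 3 of 6 epidermis, 5 of 6 cardiac and 5 of 6 yolk layer markers were lower. The yolk layer markers fell far more than their sum shows, with a median log2 fold change of -7.48 (lowest -8.75, highest 0.36). Of 7 neural markers 2 were higher and 3 lower. Of 6 erythroid markers 2 were higher. None of the markers in these lists was at 0 throughout a group. The part of these tissues in the lower level of the mitochondrial messages was not tested.

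Ratios between members inside a library do not depend on how libraries were scaled. Counts of mt-nd5 per count of mt-nd4 were 0.189, 0.202 and 0.155 in AngioTag IP and 0.562, 0.400 and 0.459 in its input. In RiboTag they were 0.158, 0.243 and 0.216 in the pull-down and 0.464, 0.701 and 0.401 in the input. In both lines every pull-down library lay below every input library, and the FACS libraries (0.443 to 0.623) lay with the inputs. mt-nd4l per count of mt-nd4, the partner with which it shares a message, moved the same way: 0.00448 to 0.0121 in AngioTag IP against 0.0311 to 0.0549, and 0.0110 to 0.0392 in RiboTag IP against 0.0540 to 0.103. The ratio of mt-nd1 to mt-nd4 did not separate pull-down and input in AngioTag (0.809 to 1.38 against 1.02 to 1.33) or in RiboTag (1.216 to 1.45 against 1.06 to 1.221), nor did that of mt-nd2 to mt-nd4 in either line (0.949 to 1.21 against 1.05 to 1.198, and 0.725 to 1.52 against 1.05 to 1.095). The ratio of mt-nd3 to mt-nd4 was 0.117, 0.436 and 0.415 in AngioTag IP against 0.161 to 0.176 in its input, so libraries 2 and 3 of the pull-down lay above the inputs and library 1 below them. In RiboTag it was 0.168, 0.1004 and 0.145 against 0.146 to 0.198, with overlap.

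The ratio of the light-strand gene mt-nd6 to its neighbour mt-nd5 was higher in the pull-downs. It was 1.81, 2.31 and 2.47 in AngioTag IP and 0.674, 1.11 and 0.838 in the input, with no overlap. In RiboTag it was 1.68, 0.622 and 2.95 in the pull-down and 0.683, 0.426 and 0.889 in the input, where pull-down library 2 lay inside the range of the inputs. Against the input of the same number the pull-down was higher in 6 of 6 pairs. On the log2 scale the differences were 1.34 in AngioTag (two-sided exact permutation test, p = 0.1, the smallest that 3 against 3 libraries can give) and 1.19 in RiboTag (exact permutation p = 0.3). Taken over both lines with labels permuted within a line, the difference was 1.27 (exact permutation p = 0.015 over 400 arrangements, 0.12 after Benjamini-Hochberg adjustment over the 8 ratio tests made), so it did not pass the adjustment. With the replicate number as a block the exact permutation p over both lines was 0.03125, the smallest that 6 pairs can give, and was not adjusted for the 8 tests. FACS total had a lower ratio than AngioTag input (0.296, 0.370 and 0.585, a log2 difference of -1.097, exact permutation p = 0.1, adjusted 0.2), and the libraries stood apart. In FACS sorted the ratio was 0.332, 0.624 and 0.394, which overlapped FACS total (log2 difference 0.12, exact permutation p = 0.7). Of the counts of the 7 genes, mt-nd6 took 9.53% ± 0.893 (SD) in AngioTag IP and 9.34% ± 1.36 in its input. For mt-nd5 the shares were 4.45% ± 1.05 and 10.9% ± 1.15. In RiboTag they were 8.09% ± 4.80 and 7.54% ± 0.960 for mt-nd6, and 5.05% ± 1.37 and 12.0% ± 3.17 for mt-nd5. The higher ratio thus went with a lower share of mt-nd5. Whether RNA of the other strand entered the mt-nd6 counts was not tested.

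**Figure D3:**
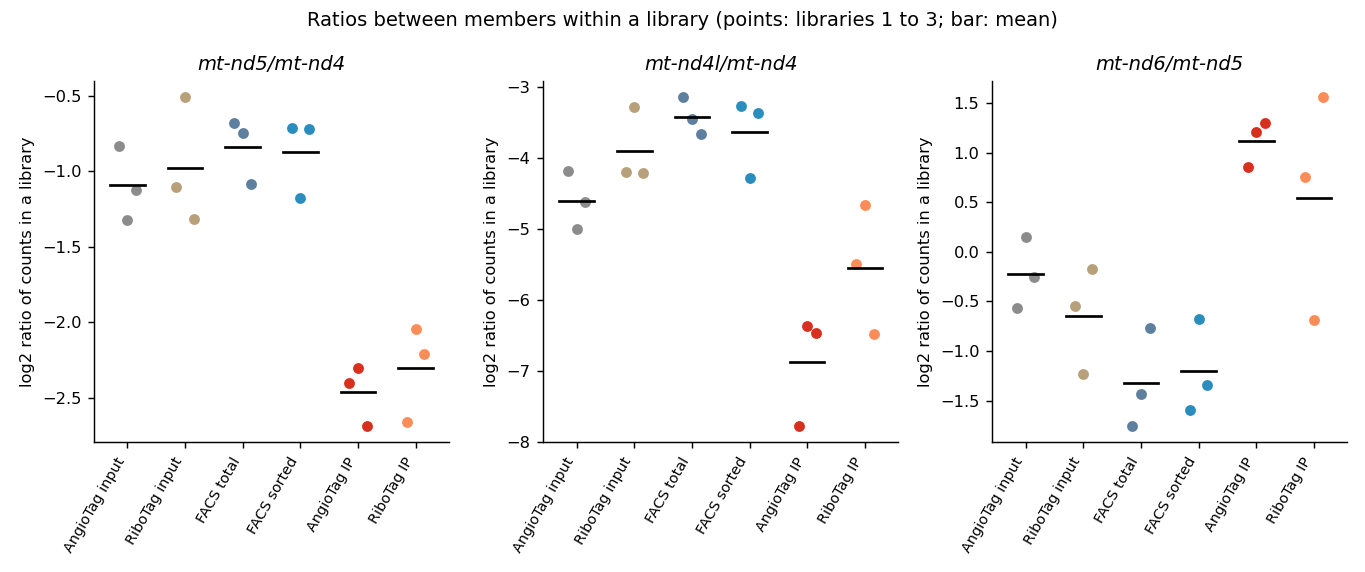
Log2 ratio of the counts of pairs of the 7 genes inside each library, by group, with a point for each library (1 to 3 from left to right) and a bar at the mean. The mt-nd5 to mt-nd4 ratio is lower in every pull-down library than in any other library, and the mt-nd6 to mt-nd5 ratio is higher in the AngioTag IP libraries than in the inputs.

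The other genes of the mitochondrial genome moved with the complex I genes. Of 6 further protein genes, 5 had enough counts, mt-co1, mt-co2 and mt-co3 for cytochrome oxidase and mt-atp6 and mt-atp8 for ATP synthase, while mt-cyb had 4 counts in all and was at 0 in 16 libraries. All 5 were lower in AngioTag IP, from -3.48 to -5.35, and 4 were lower in RiboTag IP, from -4.28 to -5.46. mt-atp8 was at -6.83 ± 1.32 there with an adjusted p of 0.0521 (5 of 5 were lower with the replicate number as a block, and 1 without RiboTag IP library 1). None of the 5 was called between FACS sorted and FACS total in edgeR, 1 had an unadjusted p below 0.05, and DESeq2 called 1. Between the pull-downs 2 of the 5 were higher in AngioTag IP, mt-co3 (1.66 ± 0.36, adjusted p = 0.00981) and mt-co2 (1.15 ± 0.37, 0.0487), beside 9.86% of all genes. The median of the 5 there was 1.46, and 1 to 4 were called over the alternatives. In the AngioTag minus RiboTag difference their median was 1.14 and none was called by edgeR. The rows of the mitochondrial ribosomal RNAs were not matched and were not analysed here.

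Among all 20517 genes kept over the 18 libraries, likeness to the 7 genes was measured as the root mean square distance, in log2 units, of a gene's centred level from the mean centred profile of the 7. mt-co3 (0.346), mt-co2 (0.380), mt-co1 (0.413) and mt-atp6 (0.504) were nearest. They lay within the range of the members other than mt-nd4l, from 0.250 (mt-nd4) and 0.337 (mt-nd1) to 0.565 (mt-nd6). All genes other than the mitochondrial protein genes were taken as nuclear, and their chromosomes were not checked. The member mt-nd4l, at 1.12, and mt-atp8, at 1.67, were farther away than the nearest gene taken as nuclear (0.975). The 5 nearest of the 20505 genes taken as nuclear were ENSDARG00000074024 (0.975), ENSDARG00000102804 (1.05), si:dkeyp-53e4.2 (1.05), ENSDARG00000102552 (1.11) and ENSDARG00000005627 (1.15). They were barely counted, with group means of at most 2.16 CPM.

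No nuclear-encoded subunit of the same complex fell as far in either pull-down. Of 7 nuclear core subunits, 2 were lower in AngioTag IP, ndufs8a (-0.68 ± 0.17, adjusted p = 0.0187), an iron-sulfur subunit, and ndufv1 (-0.66 ± 0.16, adjusted p = 0.0189), the NADH-binding subunit. Neither was called when any 1 of the input libraries was left out. The median of the 7 was 0.08, against -3.86 for the mitochondrially encoded genes. In RiboTag IP none was called by edgeR (2 had an unadjusted p below 0.05) and the median was 0.45. ndufs1, at 256 ± 49.9 against 134 ± 3.06 CPM, had a fold change of 0.98 ± 0.21 and an adjusted p of 0.0645, or 0.00770 with the replicate number as a block, and DESeq2 called it too (0.00119).

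Of 30 nuclear accessory subunits, 4 were higher in AngioTag IP and none lower, with a median of 0.48. That share is near the 12.1% of all genes called higher there. The largest were ndufb10 (0.89 ± 0.28, adjusted p = 0.0436), ndufc2 (0.89 ± 0.25, 0.0328) and ndufb7 (0.85 ± 0.24, 0.0344). These calls rested on the scaling and on single libraries: none of the 30 was called with upper quartile scaling, with all 18 libraries in 1 fit, or without AngioTag IP library 3 or any of the inputs, and 22 were without AngioTag IP library 2. In RiboTag IP none of the 30 was called by edgeR or DESeq2 (1 had an unadjusted p below 0.05) and the median was 0.00. The 2 with the highest level were ndufb9 (0.26 ± 0.40) and ndufa10 (0.34 ± 0.29).

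In sorted cells no nuclear subunit was called against FACS total by edgeR or DESeq2, among 7 core (0 with an unadjusted p below 0.05, median -0.27) and 30 accessory genes (1, median -0.22). Of those with the highest level, the core gene ndufv1 was at -0.17 ± 0.24, and the accessory genes ndufa10 and ndufb8 were at -0.74 ± 0.29 and -0.22 ± 0.31. ndufa10 was called lower with upper quartile scaling (-0.94, adjusted p = 0.0386) and with all 18 libraries in 1 fit (-0.76, 0.0419).

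Between FACS sorted and AngioTag IP the called genes of both genomes moved in opposite directions. While the 7 mitochondrially encoded genes were higher, 3 of 7 nuclear core genes were lower, ndufv2 (-1.496 ± 0.28), ndufs7 (-1.39 ± 0.29) and ndufs3 (-1.25 ± 0.28), and none higher. Of all genes tested there, 23.8% were called lower. Of the 30 accessory genes, 29 were lower, from -1.03 (ndufv3) to -2.39 (ndufb7), with a median of -1.57 beside 0.01 over all genes. In that comparison 5 of 7 skeletal muscle, 4 of 6 cardiac, 3 of 6 epidermis and 5 of 6 yolk layer markers were also lower. Of 7 neural markers 4 were lower and 1 higher. The yolk layer markers had a median of -7.25 and ran from -9.44 to 1.45, with 1 higher. Their summed CPM overlapped (1849 to 3811 in FACS sorted, 1932 to 2369 in AngioTag IP) and does not show these falls. Also higher were 13 of 20 endothelial markers, with 2 lower, 4 of 6 myeloid and 2 of 6 erythroid markers. The part of these cells was not tested. In the AngioTag minus FACS difference, 0 of 7 core and 0 of 30 accessory genes were called by edgeR. Their medians were 0.21 and 0.71, beside 0.05 over all genes, and 7 accessory genes had a positive value with an unadjusted p below 0.05. Between FACS total and AngioTag input both genomes moved the same way, with 4 of 7 core and 23 of 30 accessory genes lower beside 6 of the 7 mitochondrially encoded ones. Over all genes tested in this comparison, 21.2% were called lower. Of the accessory genes, 11 were called there without AngioTag input library 2 or FACS total library 1, and 12 with all 18 libraries in 1 fit. Between the pull-downs, ndufs1 (-0.97 ± 0.29, adjusted p = 0.0391) and ndufa9b (-1.996 ± 0.53, 0.0232) were lower in AngioTag IP and ndufa3 (1.37 ± 0.39, 0.0299) was higher, and with the replicate number as a block 17 accessory genes were higher in place of 1. Each of these 3 calls was lost without AngioTag IP library 3 or RiboTag IP library 1 (adjusted p from 0.0598 to 0.164).

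**Figure D4:**
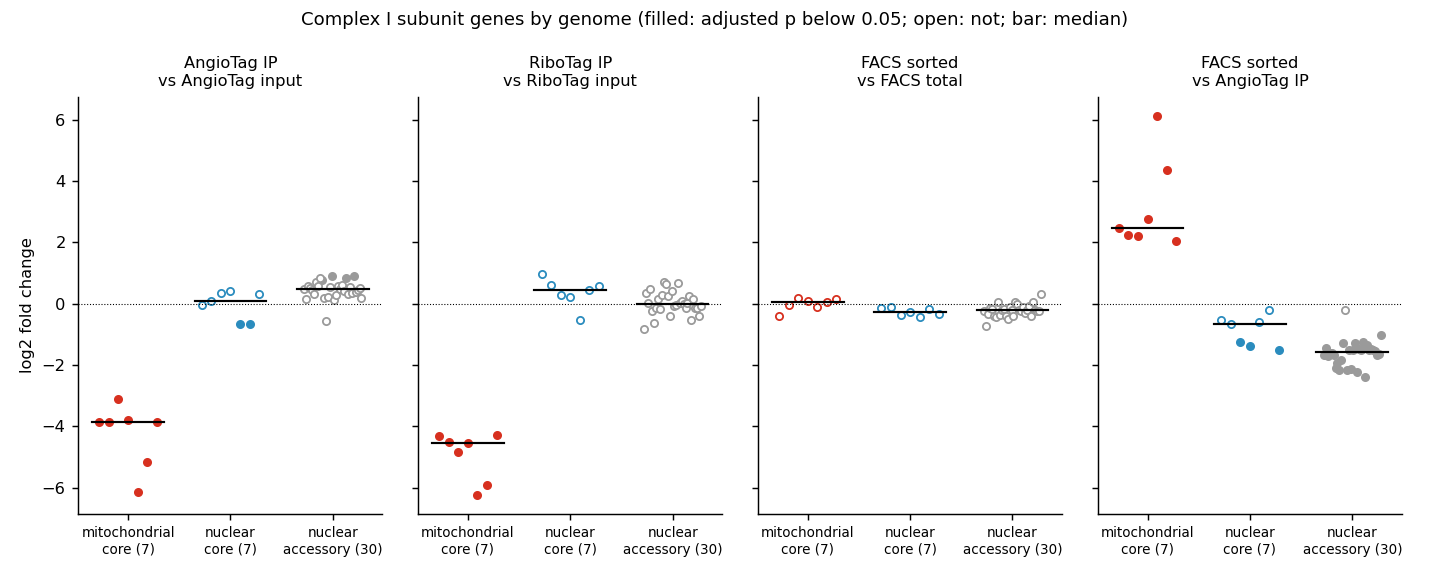
Log2 fold changes of complex I subunit genes by genome and class in 4 comparisons, a point for each gene, filled where the adjusted p was below 0.05, with a bar at the median. The 7 mitochondrially encoded genes lie far below the nuclear genes in both pull-downs, near them in sorted against total, and above them in FACS sorted against AngioTag IP.

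The 16 assembly factors build the complex but are not part of it. FACS sorted held 10 of them at lower levels than AngioTag IP (median -1.31), where 23.8% of all genes were called lower. FACS total held 10 at lower levels than AngioTag input (median -0.90), where 21.2% of all genes were. None was called in AngioTag IP by edgeR or DESeq2 (2 had an unadjusted p below 0.05), and ndufaf1 and timmdc1, the 2 with the highest level, were at 0.50 ± 0.20 and 0.36 ± 0.19. In RiboTag IP ndufaf8 was lower (2.77 ± 0.521 against 9.26 ± 2.20 CPM, -1.70 ± 0.31, adjusted p = 0.0428), and it was higher in AngioTag IP than in RiboTag IP (1.82 ± 0.35, adjusted p = 0.00472). The call in RiboTag was lost without RiboTag IP library 1 or any of the inputs. None was called in FACS sorted by edgeR (1 had an unadjusted p below 0.05), DESeq2 called 1, and timmdc1 and ndufaf1 were at 0.03 ± 0.27 and 0.19 ± 0.32.

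The 30 genes for mitochondrial transcription, RNA handling and, for a few, DNA replication are nuclear as well. In AngioTag IP 4 were lower, a share near the 11.9% of all genes called lower there, led by fastk (-2.72 ± 0.36, adjusted p = 0.00112), whose product in human cells is needed for the mt-nd6 message, polrmt (-1.36 ± 0.28, 0.00891), the mitochondrial RNA polymerase, and fastkd2 (-0.83 ± 0.19, 0.0127), an RNA-binding relative of fastk. mterf4, a factor of mitochondrial ribosome assembly, was higher (0.85 ± 0.22, 0.0238), but not with upper quartile scaling (0.66, 0.0624), with all 18 libraries in 1 fit (0.87, 0.105), or without AngioTag IP library 3 or AngioTag input library 1 or 3 (0.0701 to 0.119). fastk and polrmt were counted at low levels, 0.872 ± 0.253 against 5.80 ± 1.71 CPM and 3.18 ± 1.00 against 8.15 ± 1.17. Without AngioTag IP library 3 or any of the inputs 2 of the 30 were lower.

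In RiboTag IP none of these genes was called by edgeR (4 had an unadjusted p below 0.05). lrpprc, whose product stabilizes mitochondrial messages, was at 0.87 ± 0.18 (adjusted p = 0.0621, and 0.00881 with the replicate number as a block, where 6 genes were higher). hsd17b10, a subunit of the enzyme that cuts precursors at tRNAs, was at 0.68 ± 0.29 (adjusted p = 0.256, and 0.0404 with the block). DESeq2 called 1 gene higher. Between the pull-downs, fastk (-2.78 ± 0.73), polrmt (-1.60 ± 0.37) and lrpprc (-1.52 ± 0.29) were among 4 of 30 genes lower in AngioTag IP, where 8.76% of all genes were, and 2 of the 30 were called without AngioTag IP library 1 or RiboTag IP library 1 and none without AngioTag IP library 3. In sorted cells hsd17b10 (-1.11 ± 0.30, adjusted p = 0.0225) and tfb2m (-1.06 ± 0.31, 0.0333), a transcription factor of the mitochondrial genome, were lower than in FACS total, 2 of 30 beside 14.8% of all genes, and neither was called without FACS sorted library 1 or FACS total library 1 or 3.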

How the data were processed

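The deposited values were raw counts, 1 column for each of 18 libraries and 1 row for each Ensembl gene. Per the submitters' processing notes, STAR 2.4.2a, RSEM 1.2.22, DESeq2 and build GRCz10 were used. Their roles, the annotation and the use of strand are not given in the sources used here. Per the labels, 500 ng RNA was selected for poly(A) or depleted of ribosomal RNA, without saying which library had which, and mitochondrial messages may respond to that choice. Columns were matched to samples by name: a bare line name (or FACS) was inferred to be the pull-down (or sorted) library and the word total the input or total RNA, and 0 columns had no sample. In RiboTag the endothelial markers cannot check this inference.

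In every comparison all genes were tested by quasi-likelihood F tests (edgeR 4.0.16 in R 4.3.3), fitted on the groups compared, after filterByExpr (minimum count 10, minimum total 15) and TMM scaling, with Benjamini-Hochberg adjustment over all genes and a threshold of 0.05. The SE was computed as the absolute log2 fold change over the root of F. CPM levels used TMM factors over 18 libraries and 20517 genes. The libraries of a group differed beyond counting error in every pair. Intervals cover counting error only.

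The 7 members, the gene lists and the rule for named genes were chosen with earlier results of these data known. The rule names all 7 members, at most 3 other mitochondrial genes, up to 3 rises and 3 falls per nuclear list past the threshold (or the 2 with the highest CPM where none passed), and 5 mitochondrial and 5 nuclear genes nearest in profile, and 1 gene it names is not reported here. Core and accessory genes are also named between FACS sorted and AngioTag IP, chosen after their values were seen. Libraries with the same number deviated together in both pull-down against input comparisons (correlations of 0.154 to 0.322 in AngioTag and 0.17 to 0.575 in RiboTag) and between the pull-downs (0.141 to 0.171), so blocked values are given beside results they change. Alternatives were RLE and upper quartile scaling, scaling on nuclear genes alone, DESeq2 1.42.0, no filter, a filter of 1 CPM, all 18 libraries in 1 fit, the replicate block and leaving out each library. A planned comparison of levels per length was not run, since no gene lengths of the build were used here. Gene symbols matched 22548 of 25193 genes.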

Additional observations from a re-analysis of the deposited data

Results flagged for a closer look

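The changes of the 7 genes from whole-embryo reference to endothelial sample differed between AngioTag pull-down and sorting by a test of the difference itself (edgeR interaction contrast). The log2 differences, AngioTag minus FACS, were -3.43 for mt-nd1 (adjusted p = 0.000843), -3.77 for mt-nd2 (0.000248), -3.27 for mt-nd3 (0.00122), -6.02 for mt-nd4l (0.000187), -3.84 for mt-nd4 (0.000629), -5.17 for mt-nd5 (0.000248) and -3.98 for mt-nd6 (0.000248). mt-nd3 also differed between the 2 pull-downs, with a change from input to pull-down that was 1.73 higher in AngioTag than in RiboTag (adjusted p = 0.0401). This call was lost in 7 of 20 alternatives (adjusted p up to 0.108), and 4.46% of all genes tested were called higher there. Single outlying libraries were not looked for, since each group held 3.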

How the results depend on the processing

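In AngioTag IP against its input, FACS sorted against AngioTag IP and the AngioTag minus FACS difference, 7 of 7 genes were called in every alternative run, and in FACS sorted against FACS total 0 were. Leaving out single libraries gave 4 to 7 in RiboTag IP against its input, 1 to 3 between the pull-downs and 0 to 1 in the AngioTag minus RiboTag difference. Between the pull-downs 1 gene was called, and 2 by DESeq2, 2 with no low-count filter, 5 with all 18 libraries in 1 fit and 3 with the replicate block. Between the inputs DESeq2 called 1. The replicate block moved mt-nd1 in AngioTag IP against its input from -3.85 to -3.84, and beyond the calls named in the report it changed no call of a member.

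Some fold changes that were not called changed sign. In FACS sorted against FACS total, mt-nd2 was at 0.027 with RLE scaling and 0.020 in DESeq2. With upper quartile scaling mt-nd3 was at -0.014, mt-nd4 at -0.13, mt-nd5 at -0.16, mt-nd6 at -0.052, timmdc1 at -0.18 and ndufaf1 at -0.014, and with the 1 CPM filter timmdc1 was at -0.0041. In FACS total against AngioTag input, mt-nd4l was at 0.020 with RLE scaling, 0.030 with upper quartile scaling, 0.017 in DESeq2, 0.0021 with no low-count filter, 0.033 with the 1 CPM filter and 0.10 with all 18 libraries in 1 fit. In the AngioTag minus RiboTag difference mt-nd4l was at -0.023 with upper quartile scaling. The cause was not tested.

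Leaving out single libraries, the values in FACS sorted against FACS total ran from -0.24 to 0.082 (mt-nd2), -0.053 to 0.48 (mt-nd3), -0.41 to 0.20 (mt-nd4l), -0.086 to 0.29 (mt-nd4), -0.13 to 0.28 (mt-nd5), -0.020 to 0.36 (mt-nd6), -0.43 to 0.11 (ndufb8) and -0.10 to 0.26 (timmdc1). They ran from -0.12 to 0.62 for ndufb9 in RiboTag, from -0.063 to 0.30 for mt-nd5 between the inputs and from -0.33 to 0.24 for mt-nd4l in FACS total against AngioTag input. In the AngioTag minus RiboTag difference they ran from -0.16 to 0.39 (mt-nd4l) and from -0.056 to 1.43 (mt-nd6). The log2 difference of the mt-nd6 to mt-nd5 ratio ran from -0.15 to 0.39 in FACS sorted against FACS total, from -0.035 to 1.09 between the pull-downs and from 1.014 to 1.58 over both lines.

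Counts over all genes moved more. In RiboTag, 127 genes were higher and 90 lower, against 790 and 632 in DESeq2, 374 and 439 with all 18 libraries in 1 fit and 1306 and 1268 with the replicate block. Between the inputs 151 were higher and 156 lower, against 752 and 841 in DESeq2, 282 and 280 with no low-count filter, 1 and 5 with all 18 libraries in 1 fit, and 68 lower with the replicate block. With all 18 libraries in 1 fit, the pull-downs differed in 3052 higher and 2973 lower genes (1685 and 1498 otherwise), and 2488 genes were lower in FACS total than in AngioTag input (4075 otherwise). The AngioTag minus RiboTag difference called 850 higher and 672 lower, against 1369 and 1101 in DESeq2, 1495 and 1484 with the replicate block, and 306 lower with all 18 libraries in 1 fit. The AngioTag minus FACS difference called 605 higher and 1031 lower, against 912 and 2145 in DESeq2. Upper quartile scaling shifted the median of all genes by -0.21 in AngioTag IP against its input and in FACS sorted against FACS total, and by -0.14 between the pull-downs. RLE scaling shifted it by 0.13 in FACS sorted against AngioTag IP and by -0.16 in the AngioTag minus FACS difference. Groups of 3 libraries, and 24 to 109 counts of mt-nd4l in each pull-down library, limit what can be seen.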

Other observations

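Of 7 histone genes found in the table, 2 were higher in AngioTag IP than in its input, beside 12.1% of all genes. The median log2 fold change of the 7 was 0.36, 3 had an unadjusted p below 0.05, and 0 were called with upper quartile scaling. In RiboTag IP 0 were called by edgeR, 3 had an unadjusted p below 0.05, DESeq2 called 1 and the replicate block 2, and the median was 0.56. FACS sorted held 5 of the 7 at lower levels than AngioTag IP (median -0.9995), beside 23.8% of all genes. FACS total held 4 at lower levels than AngioTag input (median -0.88), beside 21.2% of all genes. Messages of replication histones lack a poly(A) tail, and which libraries were selected for poly(A) is not given in the sources used here, so selection and group cannot be told apart for these values or for the mitochondrial messages. Of the 30 genes for mitochondrial transcription, RNA handling and DNA replication, FACS sorted held 14 at lower and 3 at higher levels than AngioTag IP, with a median of -0.78. Of all genes tested there, 23.8% were called lower and 28% higher.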
